A study of Homo sapiens with 4 samples.

Results

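The genes described here are cadherins and factors of the epithelial-mesenchymal transition in the neuroblastoma line SK-N-BE(2), a human line in long use. They comprise 3 classical cadherins (CDH1, CDH2 and CDH11), 6 transcription factors (SNAI1, SNAI2, TWIST1, ZEB1, ZEB2 and PRRX1) and FN1, which encodes fibronectin. They were chosen by name, as the Ensembl rows of these 10 symbols among the 60671 gene IDs of the count table. The cells carried either a hairpin against METTL14 (shMETTL14) or a control hairpin (shNC), with 2 libraries in each group and no other agent named in the labels. METTL14 encodes a subunit of the enzyme that places N6-methyladenosine on RNA. According to the methods, hairpins were delivered with the pLKO.1 lentiviral vector. The labels do not say which METTL14 hairpin was used, nor whether the replicates came from separate cultures, so p-values measure the spread between these libraries, which may be technical.

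Cadherins are adhesion proteins that bind cells to one another through their extracellular domains and to the actin cytoskeleton through catenins. In the epithelial-mesenchymal transition, SNAI1, SNAI2, ZEB1 and ZEB2 repress CDH1 by binding E-box DNA motifs, while CDH2 and FN1 are commonly used as markers of the mesenchymal state. Neuroblastoma cells derive from the neural crest, a lineage that itself passes through such a transition during development and in which SNAI2, TWIST1 and ZEB2 take part.

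Of the 10 genes, 8 had enough reads to be tested and 2, CDH1 and PRRX1, were at the limit of detection. After METTL14 knockdown CDH2 and FN1 were higher, by 1.74-fold and 1.37-fold. SNAI1, ZEB1 and SNAI2 were lower, at 41.2%, 64.7% and 67.7% of the shNC mean. Smaller decreases of CDH11 and TWIST1 passed the test but not with DESeq2. Without shNC library 1 they shrank to −0.09 and −0.07 on the log2 scale. ZEB2 was not called. With edgeR's quasi-likelihood test, 7 of the 8 tested genes were called at a Benjamini-Hochberg adjusted p under 0.05, against 52.5% of all 16309 genes tested. Of the 8, 2 were called higher (27.2% of all genes) and 5 lower (25.3% of all genes). The median log2 fold change was −0.19 over the 8 genes and −0.00095 over all genes tested. Without shNC library 1 the median over the 8 was −0.08, and without shNC library 2 it was −0.28. A call by itself was common in these data, and so were groups that did not overlap in CPM (75.5% of all genes tested, and all 8 here). The size of each change is therefore given below with its error.

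Depth was even, with between 18925786 and 19886214 reads counted in genes per library. A count of 3 in a library, taken as the floor, corresponded to between 0.150 and 0.156 CPM (counts per 1000000 counts in genes, after TMM scaling). METTL14 itself had 753 and 754 counts in the shNC libraries and 303 and 321 in the shMETTL14 libraries. Its level in shMETTL14 was 41.7% of that in shNC (log2 fold change −1.26, SE 0.0832, edgeR adjusted p = 3.64e-11). With 2 libraries in each group, the smallest two-sided p that exact permutation of the libraries can give is 0.333, and each call therefore rests on the variance model of edgeR. In bulk RNA, fewer cells that express a gene and less RNA of that gene per cell cannot be told apart.

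**Figure D1:**
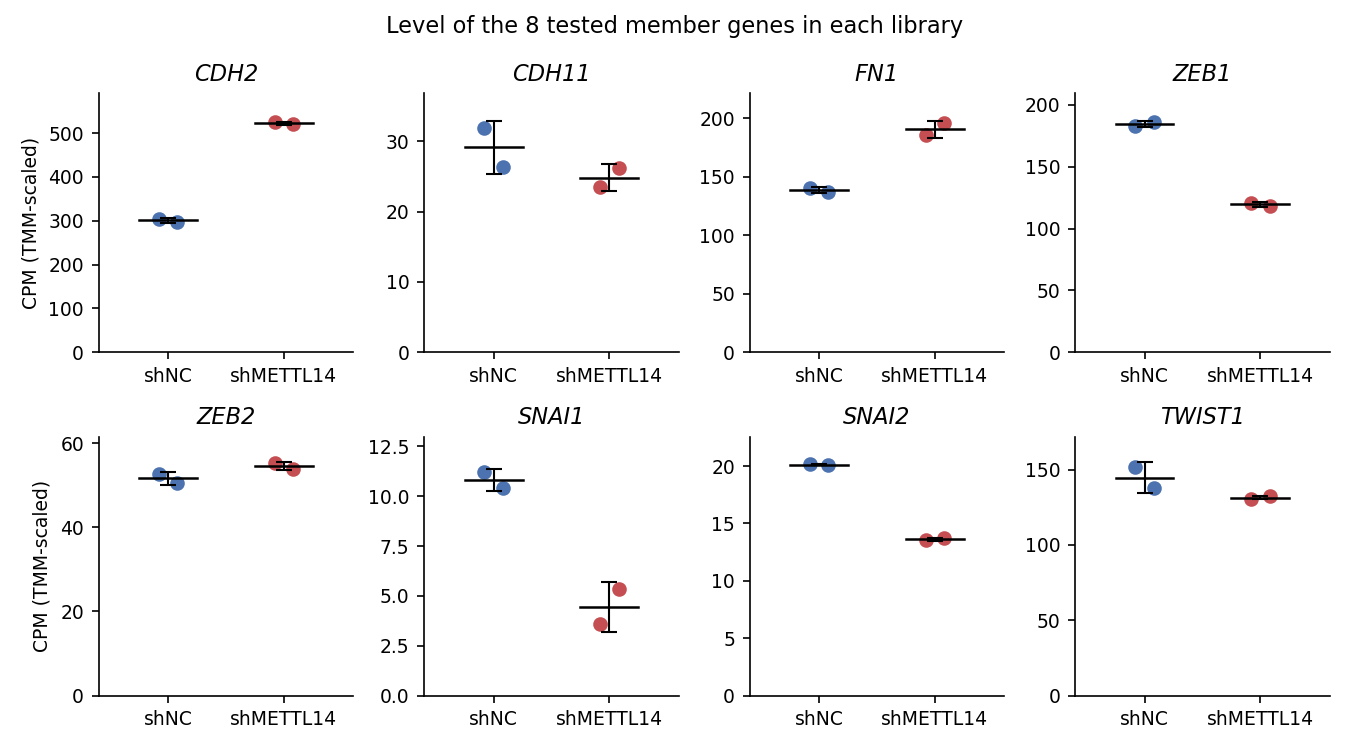
CPM after TMM scaling (y axis, from 0) of the 8 tested genes in each library of shNC (blue) and shMETTL14 (red); horizontal lines are means of 2 libraries and bars are SD. The groups lie far apart for CDH2, FN1, ZEB1, SNAI1 and SNAI2, and close together for CDH11, TWIST1 and ZEB2.

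CDH2 (N-cadherin, the classical cadherin of neural and mesenchymal cells, ENSG00000170558) lies on the minus strand of chr18:27950966-28177446 in GRCh38. It had 6087 and 5693 counts in the shNC libraries and 10278 and 10024 in the shMETTL14 libraries. Both shMETTL14 libraries stood well above both shNC libraries. Mean levels were 301 ± 5.70 CPM in shNC and 522 ± 2.89 CPM in shMETTL14 (SD, n = 2). CDH2 was higher by 0.79 on the log2 scale (SE 0.0383, edgeR adjusted p = 2.13e-13). It stayed between 0.73 and 0.81 under the 7 alternative analyses and between 0.78 and 0.81 when any 1 library was left out.

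CDH11 (OB-cadherin, found on mesenchymal cells, ENSG00000140937) lies on the minus strand of chr16:64943753-65126112. It had 636 and 507 counts in shNC and 461 and 505 in shMETTL14. On the CPM scale the groups only just failed to overlap, at 26.4 for the lower shNC library and 26.2 for the higher shMETTL14 library. The difference was −0.23 on the log2 scale (SE 0.0922, edgeR adjusted p = 0.0398). Without shNC library 1 it was −0.09 and without shMETTL14 library 1 it was −0.15, and neither passed the test. Nor was it called by DESeq2 (adjusted p = 0.234) or by edgeR without a filter on low counts.

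CDH1 (E-cadherin, the cadherin of epithelial cells, ENSG00000039068) lies on the plus strand of chr16:68737225-68835548. It had 1 and 0 counts in shNC and 0 and 0 in shMETTL14. Both groups were at or under the floor, so no fold change is given. At this depth a change of CDH1 was not detectable. The shNC libraries already showed a pattern with abundant CDH2 and CDH1 at the floor.

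Scaled by exonic length, CDH2 was the most abundant of the 23 cadherin genes examined. It stood at 60.8 CPM per kb in shNC and 105 CPM per kb in shMETTL14. That was 62.3% of the summed cadherin level in shNC and 69.7% in shMETTL14. CDH24, a classical-type cadherin, followed with 32.7% and 26.7%, and CDH11 held 2.23% and 1.23%. These shares depend on the length used. Per kb of the longest coding transcript instead, CDH2 stood at 69.5 and CDH11 at 4.25 CPM per kb in shNC. Of the 20 cadherins that are not among the 10 genes, 7 were tested, 2 were higher and 1 was lower. Over all genes tested 27.2% were higher and 25.3% lower. CDH7 had 116 and 112 counts in shNC and 189 and 206 in shMETTL14 (log2 fold change 0.80, SE 0.139, edgeR adjusted p = 4.6e-05). CDH24 had 2484 and 2197 against 3006 and 2891 (0.34, SE 0.0466, edgeR adjusted p = 2.13e-06). CDH23, a cadherin of hair-cell tip links, had 64 and 47 against 21 and 27 (−1.19, SE 0.298, edgeR adjusted p = 0.00193). The median log2 fold change of the 7 was 0.34. CDH7 stood at only 0.401 CPM per kb in shNC.

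**Figure D2:**
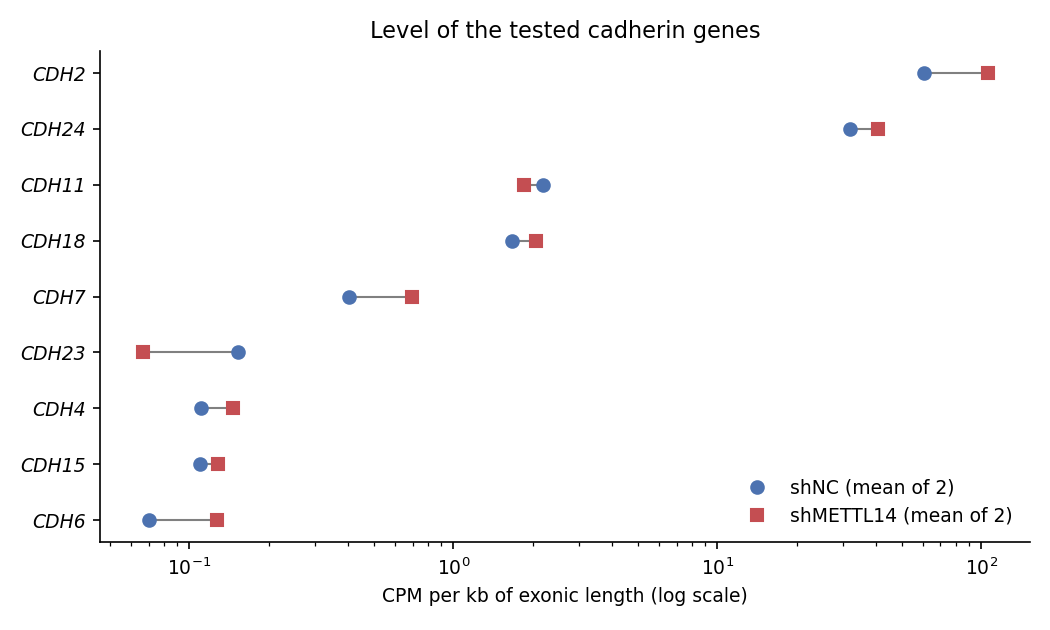
Mean CPM per kb of exonic length (x axis, log scale) of the 9 tested cadherin genes in shNC (circles) and shMETTL14 (squares), 2 libraries each. CDH2 leads in both groups, at 60.8 and 105 CPM per kb, and CDH11 lies between 1.86 and 2.18.

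FN1 (ENSG00000115414) lies on the minus strand of chr2:215360440-215436172 and encodes the matrix glycoprotein that integrins bind. It had 2801 and 2625 counts in shNC and 3635 and 3771 in shMETTL14. Both shMETTL14 libraries were above both shNC libraries. Levels were 139 ± 2.43 CPM and 191 ± 7.27 CPM (SD, n = 2), a log2 fold change of 0.46 (SE 0.0435, edgeR adjusted p = 1.2e-08). Across the 7 alternative analyses it lay between 0.39 and 0.47, and with 1 library left out between 0.43 and 0.50.

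SNAI1 (Snail, a zinc-finger repressor, ENSG00000124216) lies on the plus strand of chr20:49982999-49988886. It was the weakest counted of the tested genes, with 224 and 200 counts in shNC and 70 and 103 in shMETTL14. Both shMETTL14 libraries were lower than both shNC libraries but differed from each other, at 3.57 and 5.34 CPM. SNAI1 had a log2 fold change of −1.28 (SE 0.163, edgeR adjusted p = 8.72e-07). It was −1.01 without shMETTL14 library 1 and −1.59 without shMETTL14 library 2, and it was called in every one of the 7 alternative and 4 left-out analyses.

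SNAI2 (Slug, the family member active in the neural crest, ENSG00000019549) lies on the minus strand of chr8:48917604-48921740. It had 402 and 385 counts in shNC and 265 and 264 in shMETTL14. The replicates were nearly equal within each group and the groups did not overlap, as was so for 75.5% of all genes tested. SNAI2 had a log2 fold change of −0.56 (SE 0.0954, edgeR adjusted p = 3.6e-05), with a range of −0.63 to −0.55 over the 7 alternative analyses. The third family member, SNAI3, had 0 and 2 counts in shNC and 0 and 0 in shMETTL14.

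ZEB1 (a zinc-finger and homeodomain repressor, ENSG00000148516) lies on the plus strand of chr10:31318495-31529814. It had 3656 and 3570 counts in shNC and 2369 and 2279 in shMETTL14. Both shMETTL14 libraries were well below both shNC libraries, at 120 ± 1.82 CPM against 185 ± 2.13 CPM (SD, n = 2). This gave a log2 fold change of −0.63 (SE 0.0425, edgeR adjusted p = 5.85e-11), and it ranged from −0.69 to −0.62 over the 7 alternative analyses.

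ZEB2 (its paralogue, on the minus strand of chr2:144364364-144524583, ENSG00000169554) had 1052 and 970 counts in shNC and 1084 and 1037 in shMETTL14. The CPM values of the groups did not overlap, at 50.6 and 52.7 against 53.8 and 55.3, as was so for 75.5% of all genes tested. ZEB2 had a log2 fold change of 0.08 (SE 0.059, edgeR adjusted p = 0.276) and was not called under any of the 7 alternative or 4 left-out analyses. A difference of this size was not detectable beyond the spread that edgeR assigns.

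TWIST1 (a basic helix-loop-helix factor, ENSG00000122691) lies on the minus strand of chr7:19020991-19117672. It had 3031 and 2637 counts in shNC and 2563 and 2547 in shMETTL14. The shNC libraries differed from each other, at 152 and 137 CPM, by more than the lower of them differed from the shMETTL14 libraries, at 131 and 132 CPM. TWIST1 had a log2 fold change of −0.14 (SE 0.0479, edgeR adjusted p = 0.0188). Without shNC library 1 it was −0.07 (edgeR adjusted p = 0.276), and it lost its call also without shMETTL14 library 1 (−0.13), without shMETTL14 library 2 (−0.14), with DESeq2 (adjusted p = 0.136) and with no filter on low counts.

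PRRX1 (a homeobox factor of mesenchyme, ENSG00000116132), on the plus strand of chr1:170662728-170739419, had 1 and 3 counts in shNC and 1 and 0 in shMETTL14. It was at the floor in both groups, and no fold change is given. Its paralogue PRRX2 was well counted, with 406 and 431 counts in shNC and 239 and 232 in shMETTL14. PRRX2 was lower, with a log2 fold change of −0.82 (SE 0.0994, edgeR adjusted p = 4.33e-07).

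**Figure D3:**
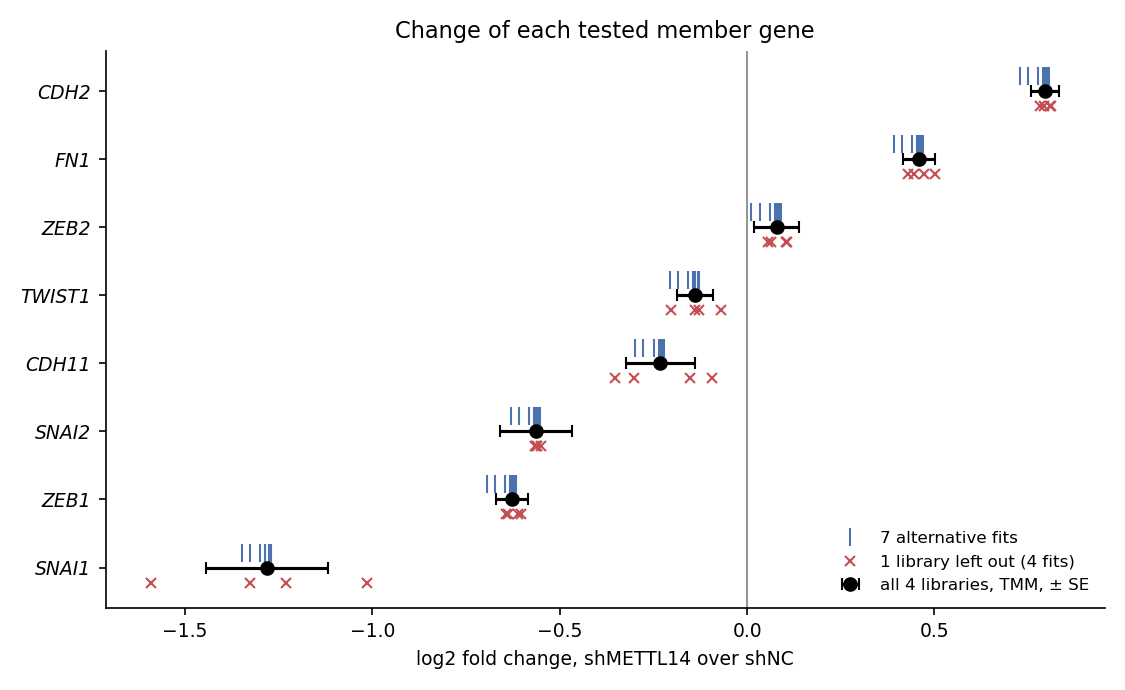
Log2 fold change of shMETTL14 over shNC (x axis) for the 8 tested genes; black points with bars are the value and its SE, blue ticks 7 alternative analyses and red crosses 4 analyses without 1 library. CDH2 and FN1 lie above 0, SNAI1, ZEB1 and SNAI2 lie below −0.5, and the crosses of SNAI1 spread from −1.59 to −1.01.

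The 8 tested genes differed widely in level. Per kb of exonic length the order in shNC was TWIST1, CDH2, ZEB1, FN1, SNAI1, SNAI2, CDH11 and ZEB2, from 71.2 to 2.06 CPM per kb. The values of CDH11 (1.98 and 2.38) and ZEB2 (mean 2.06, SD 0.0598) overlapped, and no other neighbours did. In shMETTL14, CDH2 at 105 CPM per kb stood above TWIST1 at 64.7. SNAI2 at 4.01 stood above SNAI1 at 2.64 CPM per kb, and the values of SNAI1 (2.12 and 3.17) overlapped those of ZEB2 (2.15 and 2.21). Per kb of the longest coding transcript instead, SNAI2 (8.28) stood above SNAI1 (6.42) and ZEB2 (5.39) above CDH11 (4.25) already in shNC, so the order within these pairs depends on the length used.

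Antisense genes share exonic bases with 3 of the factors, ZEB1, TWIST1 and ZEB2, and the strand setting of the counting is not given in the sources used here. ZEB1-AS1, which runs opposite to ZEB1 and shares 366 exonic bases with it, had 410 and 414 counts in shNC and 216 and 196 in shMETTL14 (log2 fold change −0.99, SE 0.102, edgeR adjusted p = 3.8e-08). AC003986.2, opposite to TWIST1 with 141 shared bases, had 427 and 438 against 240 and 217 (−0.91, SE 0.0991, edgeR adjusted p = 9.08e-08). Both antisense genes fell by a larger fold than the gene they face. That difference was not tested, and both were named after their values were seen. As the strand setting is not known, it cannot be said to which gene, if any, reads in the shared bases were counted. ZEB2-AS1, which shares 1299 exonic bases with ZEB2, had at most 5 counts in any library, and a SNAI1 pseudogene, SNAI1P1, at most 7.

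The E-box that SNAI and ZEB proteins bind, CAGGTG or CACCTG on either strand, was searched in RefSeq promoter windows of GRCh38.p14 that reach from 250 bases before a start site to 50 after it. Windows were present for 5 of the 10 genes: CDH2 with 2, FN1, PRRX1 and ZEB2 with 1 each, and ZEB1 with 7. Of these 12 windows 2 held the motif, both of ZEB1, against 20.6% of all 35116 windows. The 2 ZEB1 windows with the motif are shown with the E-boxes in capitals, followed by 1 of the 2 CDH2 windows and the FN1 window, from the genes that rose. No window of CDH2 or FN1 held the motif, and the other CDH2 window and the other 5 of ZEB1 are not shown. All are written 5′ to 3′ on the strand of the gene.
ZEB1, chr10:31318167-31318466, plus strand: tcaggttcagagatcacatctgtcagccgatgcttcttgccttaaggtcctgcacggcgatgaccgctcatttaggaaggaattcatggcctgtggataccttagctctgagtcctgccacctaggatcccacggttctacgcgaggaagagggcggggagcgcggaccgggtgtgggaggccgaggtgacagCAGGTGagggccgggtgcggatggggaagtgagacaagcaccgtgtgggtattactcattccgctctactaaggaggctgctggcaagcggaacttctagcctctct
ZEB1, chr10:31318966-31319265, plus strand: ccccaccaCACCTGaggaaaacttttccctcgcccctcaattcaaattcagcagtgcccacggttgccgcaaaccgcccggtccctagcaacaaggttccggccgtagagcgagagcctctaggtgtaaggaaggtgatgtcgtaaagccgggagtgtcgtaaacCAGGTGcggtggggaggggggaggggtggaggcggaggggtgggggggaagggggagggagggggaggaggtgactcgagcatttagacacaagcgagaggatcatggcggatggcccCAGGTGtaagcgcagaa
CDH2, chr18:28177081-28177380, minus strand: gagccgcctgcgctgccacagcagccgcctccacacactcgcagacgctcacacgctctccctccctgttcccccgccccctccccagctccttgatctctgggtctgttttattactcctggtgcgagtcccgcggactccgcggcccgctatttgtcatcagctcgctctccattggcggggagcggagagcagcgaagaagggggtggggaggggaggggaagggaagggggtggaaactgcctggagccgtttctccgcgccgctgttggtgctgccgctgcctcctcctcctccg
FN1, chr2:215436019-215436318, minus strand: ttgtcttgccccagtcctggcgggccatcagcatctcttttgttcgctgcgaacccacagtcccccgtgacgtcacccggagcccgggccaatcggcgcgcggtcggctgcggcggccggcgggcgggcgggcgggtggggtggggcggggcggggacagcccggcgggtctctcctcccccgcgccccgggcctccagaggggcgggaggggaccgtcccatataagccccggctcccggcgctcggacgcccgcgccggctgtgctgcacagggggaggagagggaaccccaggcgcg

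In the first ZEB1 window the motif began 57 bases before the start site. In the other it began 242 and 85 bases before the start and 33 bases after it. A match is a description of these letters only, and binding was not measured.

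The transcripts also differed in GGACT, a core sequence at which N6-methyladenosine is often placed. SNAI1 had 2.37 GGACT per kb of transcript, more than 95.2% of the 12788 tested genes with a coding transcript, and CDH2 had 1.62 per kb, more than 82.5%. FN1 had 0.786, ZEB2 0.626, ZEB1 0.501 and SNAI2 0.412 per kb, all under the median of 0.938. The order was different for the wider consensus known as DRACH, which includes GGACT: per kb, SNAI1 was above only 26.8% of these genes, while CDH2 was above 91.9%, ZEB1 above 91.0%, FN1 above 87.4% and SNAI2 above 83.9%. ZEB2 was above 89.0%, CDH11 above 83.4% and TWIST1 above 11.4%. Which genes were rich in such sequences thus depended on the motif counted. The modification itself was not measured in these libraries.

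A total of 119 further genes in 7 lists covered relatives and partners of these proteins and other epithelial and mesenchymal genes, and 79 of them were tested. Of these, 50 were called, 25 higher and 25 lower. Under upper quartile scaling, which shifted the median of all genes by −0.068 on the log2 scale, the split was 20 higher and 28 lower. Over all genes that scaling changed the split from 4438 higher and 4123 lower to 3550 and 4961. The counts of each list below are to be read beside the shares over all genes tested: 52.5% called, 27.2% higher and 25.3% lower.

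Catenins and nectins, the junction proteins beside cadherins, moved in both directions. Of 12 tested genes 5 were higher (27.2% of all genes) and 3 lower (25.3%), with a median log2 fold change of 0.01. With upper quartile scaling 4 were higher, 5 were lower and the median was −0.05. CTNNB1 (β-catenin, which binds the cadherin tail) had 4163 and 3997 counts in shNC and 3352 and 3286 in shMETTL14, a log2 fold change of −0.29 (SE 0.0404, edgeR adjusted p = 3.16e-06). CTNND1 (p120 catenin, which holds cadherins at the membrane) had 118 and 122 against 163 and 174 (0.50, SE 0.143, edgeR adjusted p = 0.00572), a call that DESeq2 did not make. CTNNA1 (α-catenin, the link to actin) was not called at −0.07 (edgeR adjusted p = 0.128), though it was called lower with upper quartile scaling (−0.14) and with library size alone (−0.12). The nectins NECTIN1 and NECTIN2, immunoglobulin-type adhesion proteins of the same junctions, were higher, with log2 fold changes of 0.69 (SE 0.0449) and 0.60 (SE 0.125). CDH2 therefore rose while CTNNB1 fell. In the same list JUP was higher (0.31, SE 0.046, edgeR adjusted p = 6.16e-06) and CTNNA2 lower (−0.31, SE 0.0441, edgeR adjusted p = 4.06e-06). These 2 catenins were named after their values were seen.

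The list of fibronectin receptors, which also holds TNS1 (an adhesion protein inside the cell), gave no call in the direction of FN1. Of its 9 tested genes 3 were lower (25.3% of all genes) and none higher (27.2%), also under every alternative with all 4 libraries. The median log2 fold change was −0.08 (edgeR). The αV integrin gene ITGAV had 1638 and 1547 counts in shNC and 1103 and 1086 in shMETTL14 (−0.53, SE 0.0517, edgeR adjusted p = 1.77e-08). The syndecan genes SDC4 (−0.95, SE 0.0955) and SDC2 (−0.50, SE 0.0686) were the other lower ones. ITGB1, the shared β subunit, was not called (0.05, SE 0.038, edgeR adjusted p = 0.283). ITGA5, which pairs with it as the main fibronectin receptor, had only 12 and 9 counts in shNC and 5 and 5 in shMETTL14 and was not tested.

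Among related and partner transcription factors, 7 of 9 tested genes were lower (25.3% of all genes) and 1 was higher (27.2%). The median log2 fold change was −0.33. The list holds the E proteins, which dimerise with TWIST1, and the ID proteins, which bind E proteins and keep them from DNA. TCF4 had 3672 and 3386 counts in shNC and 1891 and 1914 in shMETTL14 (−0.88, SE 0.0445, edgeR adjusted p = 4.77e-13). TCF12 had 7127 and 6973 against 4699 and 4566 (−0.60, SE 0.0389, edgeR adjusted p = 3.11e-11). TCF4 and TCF12 thus fell by more than TWIST1, and the E protein TCF3 by less, with the differences not tested. The call of TCF3 (−0.10, edgeR adjusted p = 0.0477) was lost whenever 1 library was left out, with DESeq2 and without the filter on low counts. ID1 had 2419 and 2517 against 1356 and 1382 (−0.84, SE 0.0504, edgeR adjusted p = 7.95e-12). The 1 gene that was higher, named after its values were seen, was ID4, with 22 and 6 against 57 and 49 counts. TWIST2 had 26 and 28 against 30 and 45 counts and was not called (0.48, SE 0.327, edgeR adjusted p = 0.227).

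Corepressors and proteins that control the turnover of these factors had 8 of 16 genes higher (27.2% of all genes) and 1 lower (25.3%). Their median log2 fold change was 0.15. With upper quartile scaling 5 were higher and 2 lower. BMI1, a Polycomb protein, had 449 and 431 counts in shNC and 712 and 694 in shMETTL14 (0.69, SE 0.0771, edgeR adjusted p = 1.5e-07). FBXO45 (0.59, SE 0.0618) and FBXW7 (0.33, SE 0.0663), both parts of ubiquitin ligases, were also higher.

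Other mesenchymal genes did not move one way: 15 of 18 tested were called, 7 higher and 8 lower, with a median log2 fold change of −0.03. The shares over all genes tested were 52.5% called, 27.2% higher and 25.3% lower. TNC (tenascin C, a matrix protein) had 524 and 471 counts in shNC and 1957 and 1893 in shMETTL14 (1.96, SE 0.0595, edgeR adjusted p = 1.38e-16). LOX, which cross-links collagen, had 205 and 202 against 521 and 481 (1.31, SE 0.097, edgeR adjusted p = 2.55e-10). S100A4, a calcium-binding protein, had 148 and 115 against 59 and 57 (−1.17, SE 0.187, edgeR adjusted p = 1.82e-05). VIM (vimentin) had the most reads of these, 37862 and 37814 against 38369 and 38510, and was not called (0.03, SE 0.0353, edgeR adjusted p = 0.473).

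Of 24 epithelial genes only 8 had enough reads to test, of which 2 were higher (27.2% of all genes) and 2 lower (25.3%). Their median log2 fold change was −0.24. It was −0.05 with at least 10 counts required in every library and −0.48 without shNC library 1. TJP1 (ZO-1, a scaffold of tight junctions) had 686 and 618 counts in shNC and 1092 and 1036 in shMETTL14 (0.72, SE 0.0663, edgeR adjusted p = 8.29e-09). GRHL1, a grainyhead factor, had 17 and 26 against 57 and 50 (1.32, SE 0.311, edgeR adjusted p = 0.00116). EPCAM had 93 and 90 against 62 and 48 (−0.72, SE 0.208, edgeR adjusted p = 0.00583), a call lost with DESeq2 and without shMETTL14 library 2 (−0.55). The epithelial regulators ESRP1 and GRHL2 had at most 1 and 7 counts in any library and were not tested.

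**Figure D4:**
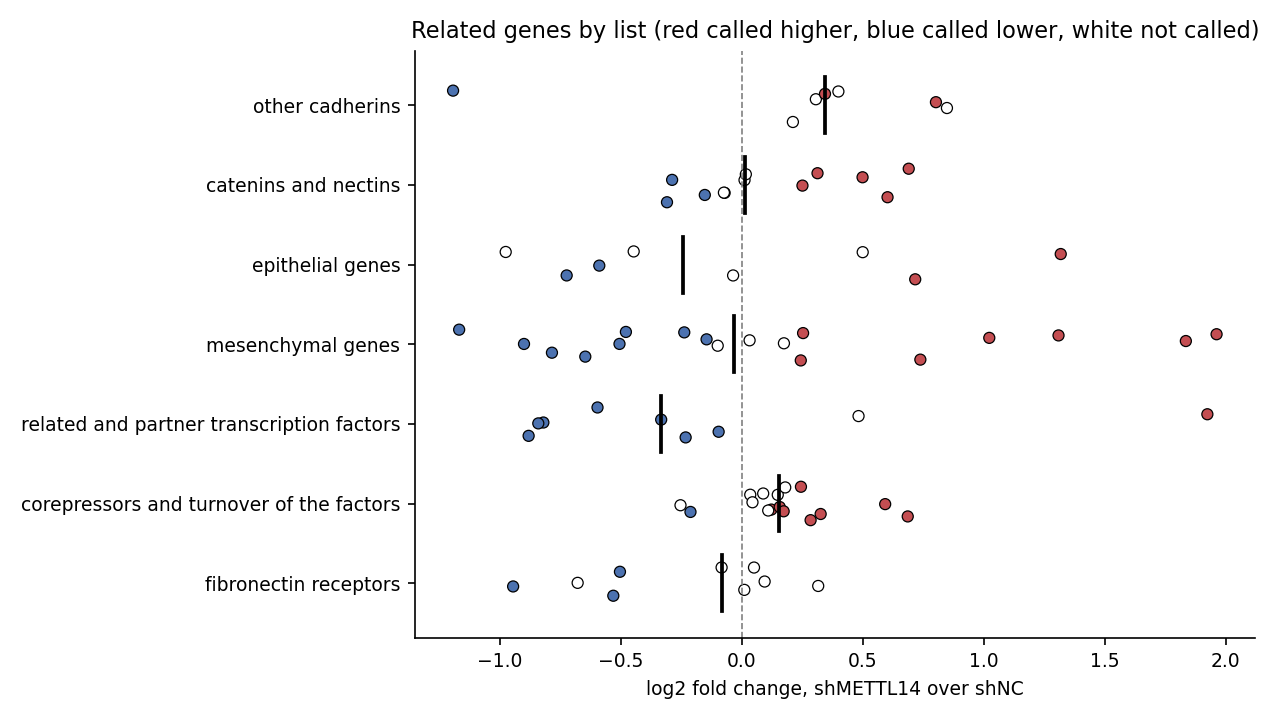
Log2 fold change of shMETTL14 over shNC (x axis) of the 79 tested related genes in 7 lists; red points were called higher, blue lower and white not called, thick lines are list medians and the dashed line is the median of all genes. Related transcription factors lie mostly below 0, with 7 lower and 1 higher, and mesenchymal genes spread to both sides, with 7 higher and 8 lower.

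The cell type of the label was read from marker genes. All 12 noradrenergic neuroblastoma markers were tested, with 9 lower and 1 higher. Their summed level was between 3722 and 3844 CPM in shNC and between 3074 and 3086 CPM in shMETTL14. Over all genes tested 25.3% were lower and 27.2% higher. Of 7 fibroblast markers 4 were lower and 1 higher, and their sum was between 453 and 456 CPM in shNC and between 416 and 425 CPM in shMETTL14. PDGFRA, the most changed of them, had 328 and 316 counts against 61 and 85, and was named after its values were seen. LUM made up most of the sum, at 237 CPM in shNC and 247 CPM in shMETTL14, and was not called. The 1 higher marker was COL1A2, also named after its values were seen, with 2 and 6 counts against 11 and 18. The Schwann cell marker SOX10 had no count in any library (under 3 counts in each), and the 6 blood and endothelial markers summed to between 2.25 and 2.71 CPM. The part of the noradrenergic and fibroblast markers in the changes described here was not tested.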

How the data were processed

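Total RNA of 4 libraries was sequenced in pairs (Illumina NovaSeq). The authors deposited raw read counts per Ensembl gene. The submitters' processing notes name HISAT2 2.1.0, StringTie 1.3.6, HTSeq 0.13.5 and edgeR with GRCh38. The annotation release and strand setting are not given in the sources used here. Lines that name no gene (between 19.1% and 19.9% of counts) were left out. Counts were tested with edgeR 4.0.16 in R 4.3.3 (quasi-likelihood F-test, TMM, filterByExpr with a minimum count of 10, group only, Benjamini-Hochberg adjustment over 16309 genes, threshold 0.05). SEs were derived from F. The procedure was run on simulated data with few changed genes and the same dispersion for every gene. That setting differs from these data, where 52.5% of genes were called, so it does not check the error rate here. Lengths and coordinates are from GENCODE 29 (GRCh38), promoters from RefSeq. Alternatives were DESeq2 1.42.0, 3 other scalings, 2 other filters, a replicate block and leaving out each library. Counting and library error only are covered.

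The members and lists were chosen with earlier results of these data known. All members and METTL14 were named, with the 3 largest called changes of each related list (mean log2 CPM of at least 1) and a fixed set of junction, integrin, partner and epithelial genes. Replicate 1 and 2 of a group differed by more than sampling noise (chi-square per gene 2.66 for shNC and 2.21 for shMETTL14, against 31.0 between groups).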

Additional observations from a re-analysis of the deposited data

How the results depend on the processing

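CDH2, FN1, SNAI1, SNAI2 and ZEB1 kept their direction and call in each of 7 alternative analyses and each of 4 that left out 1 library. The number of the 8 tested genes called was 7 in the main analysis, 5 with DESeq2 and without a filter on low counts (where TWIST1 and CDH11 were lost), and between 5 and 7 with 1 library left out. Over all genes DESeq2 called 5546 against 8561, and leaving out 1 library gave between 7287 and 7458. With the replicate block 8926 genes were called, 7 of them among the 8, and no call of these 8 changed. Same-numbered libraries did not deviate together (correlation 0.0048), so the block pairs libraries by number alone. Of the 79 related genes 50 were called, 34 with DESeq2 and 53 with the replicate block. With 1 library left out it lay between 40 and 44. None of the 8 tested genes changed direction under any alternative run. CDH1 and PRRX1 had adjusted p of 0.633 and 0.629 in the edgeR analysis without a filter. With 1 library left out, which also changes the genes that pass the filter, the median log2 fold change lay between −0.53 and −0.26 for fibronectin receptors, between 0.26 and 0.56 for other cadherins, between −0.02 and 0.04 for catenins and nectins, and between −0.07 and 0.05 for mesenchymal genes. The cause of the lost calls was not tested. Over the single genes of the members and lists, the 7 alternatives lost 39 calls and gained 13 in all, and leaving out 1 library lost 45 and gained 5.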

Other observations

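Words of 7 bases were taken from the sequences that the METTL14 hairpins of the study target. They were counted in the 3′ UTR of the longest coding transcript of each gene. GCAATAT comes from the first METTL14 hairpin that the methods list, and AGCTAAA and ATAGCTA come from the second. The labels do not say which was used, so a word applies only if its hairpin was used here. GCAATAT occurred once in CDH11, AGCTAAA once in CDH11 and 4 times in ZEB2, and ATAGCTA once in SNAI2. None of these words occurred in CDH2, FN1, SNAI1, TWIST1 or ZEB1. Among tested genes they occurred in 8.59%, 10.6% and 7.05%. Of the 3 genes with a word, SNAI2 was lower, CDH11 was lower with a call that DESeq2 did not make, and ZEB2 was not called.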
